A study of Bos taurus with 8 samples.

Results

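LEF1-positive CD4 T cells of bovine blood were described without LPS and after 2 h, 4 h and 8 h of LPS, and 1333 such cells were found among 28641 cells with 200 to 3000 genes. A cell was a member when it held at least 2 unique molecular identifiers (UMIs, each standing for 1 captured RNA molecule) of CD3D, CD3E and CD3G together, at least 1 UMI of CD4 and at least 1 of LEF1. No UMI of FOXP3, CD8A, CD8B, WC1, WC1.3, MS4A1 or CD14 was allowed. These genes mark regulatory T cells, CD8 T cells, WC1 γδ T cells, B cells and monocytes, and a cell that expresses one of them but gave no UMI of it was not kept out. LEF1 and the other genes of the rule chose the members, so their values are given as a description with no test. Blood from 4 female Holstein cattle in lactation, 2 years old, was mixed and split into 4 parts. One part had no LPS and the others had LPS at 2 µg/ml and 37 °C for 2 h, 4 h or 8 h, and peripheral blood mononuclear cells (PBMCs) were isolated after the treatment. Each part gave 1 library of single-cell RNA sequencing. Where 4 values follow each other below, they run from the part without LPS through the increasing LPS times. All libraries share the same pool of animals, and the LPS was given to whole blood, so T cells were exposed together with the other blood cells. No incubation time is given for the part without LPS, and LPS and time in culture cannot be told apart in a ratio to it.

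LEF1 is a transcription factor of the TCF/LEF family that, with its relative TCF7, acts in Wnt signalling and keeps the programme of naive T cells. Naive CD4 T cells have not yet met their antigen. They circulate between blood and lymph nodes with the help of the chemokine receptor CCR7 and the sphingosine phosphate receptor S1PR1, and they live on the interleukin 7 signal received by IL7R. Memory cells lower several of these genes and raise others such as S100A4, ITGB1 and AHNAK. LPS, a component of the outer membrane of Gram-negative bacteria, is sensed by TLR4 with CD14 mainly on myeloid cells, which release cytokines and interferons that reach T cells.

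The members numbered 335, 401, 375 and 222. The deposited count tables held 30756 barcodes, of which between 419 and 619 per library had more than 3000 genes and were left out. The median UMI count per member was 4887, 4727, 5485 and 6251.5, so the 8 h members were the deepest. The members' UMIs added up to between 1455111 and 2183542 per library, and the median mitochondrial percentage lay between 2.38% and 2.55%. Pairs of libraries shared 8 to 24 barcodes, and 7 members had a barcode that also stood in another library. CD3E was found at 774, 707, 688 and 726 CPM (UMIs scaled to a library total of 1e+06), and CD4 at 371, 323, 306 and 298 CPM, both of which the rule required. LEF1 rested on few molecules, since 72.8%, 72.3%, 68.3% and 63.5% of the members held exactly 1 LEF1 UMI and the highest count in a member was 10. Its level in the members was 247, 253, 252 and 232 CPM.

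The members made up 4.26% (3.82 to 4.73), 4.05% (3.67 to 4.45), 5.05% (4.56 to 5.57) and 6.46% (5.66 to 7.33) of the cells, with exact binomial intervals of 95% in parentheses. Among all CD4 T cells that met the rule apart from LEF1, the share with LEF1 was 35.2% (32.2 to 38.4), 33.8% (31.2 to 36.6), 38.9% (35.8 to 42.0) and 51.7% (46.9 to 56.6). The 8 h share was thus the highest, but a deeper cell has more chances to give a LEF1 UMI. Cells were then thinned to 2000 UMIs before the rule was applied, which left out 1164, 1205, 694 and 933 shallower cells. Of the remaining 6702, 8701, 6737 and 2505 cells, 1.19%, 0.839%, 0.905% and 1.40% were members. Among CD4 T cells the thinned share was 19.9% (16.1 to 24.1), 18.6% (14.9 to 22.8), 21.2% (16.6 to 26.4) and 25.4% (18.3 to 33.5), and the 4 intervals overlapped. In the second way of thinning, the CD4 T cells were chosen on all their UMIs and only LEF1 was then read in 2000. It gave 18% (15.6 to 20.6), 17.6% (15.4 to 19.9), 18.6% (16.1 to 21.2) and 24.6% (20.6 to 29.0). Here the 8 h interval overlapped that of 4 h and lay above that of 2 h. It lay only just above the interval without LPS, with a lower bound of 20.6047% against an upper bound of 20.5996%, and the UMIs were drawn only once. A LEF1 UMI was seen in 0.382% to 1.14% of the cells of a B cell gate, with median UMI counts from 4238 to 6227, and in 0.542% to 2.38% of a monocyte gate, with medians from 5126 to 12403, so the share in CD4 T cells stood far above that background. All intervals here cover counting error only, and with 1 library per treatment no difference between times could be tested.

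**Figure D1:**
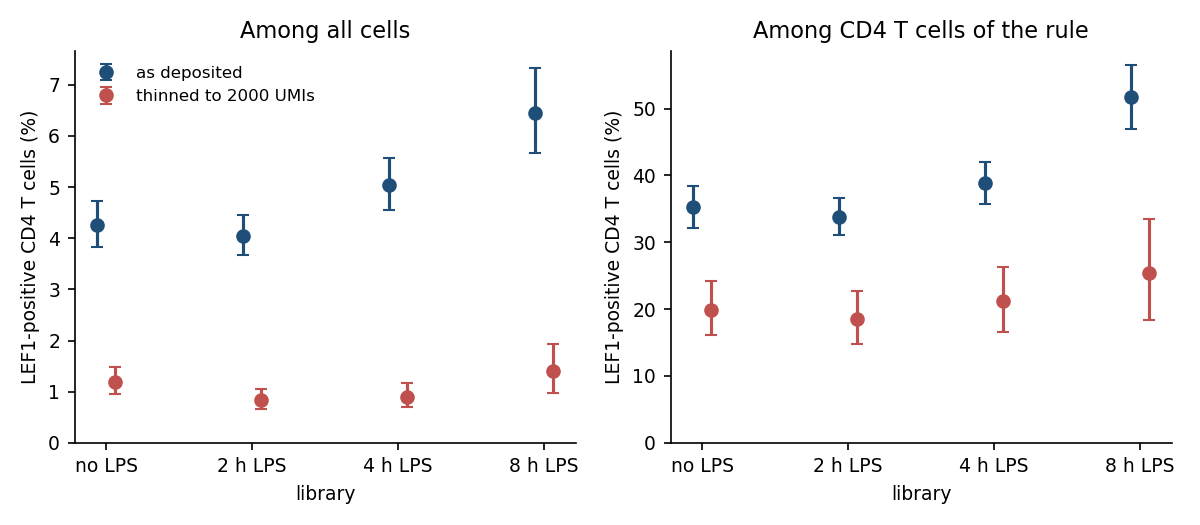
Share of LEF1-positive CD4 T cells (%) in each library among all cells (left) and among CD4 T cells of the rule (right), as deposited and after thinning each cell to 2000 UMIs, with 95% exact binomial intervals. Among CD4 T cells the 8 h value is 51.7% as deposited and 25.4% after thinning before the rule, where its interval overlaps the others.

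To find what LEF1-positive cells shared beyond the rule, they were compared with the 2197 CD4 T cells in which no LEF1 UMI was captured. The UMIs of each class were summed in each library and compared within libraries by the quasi-likelihood test of edgeR, with all genes of the rule left out. Of 7699 genes tested, 57 (0.74%) were higher and 158 (2.05%) lower in LEF1-positive cells at an adjusted p under 0.05. Without the 4 h library the counts were 24 and 80. LEF1-negative means only that no LEF1 molecule was captured, and such cells were shallower, with a median of 4409, 4491, 5032.5 and 6017 UMIs. With cells matched on UMIs the counts were 53 and 167. DESeq2 with the same block called 12 and 31, and edgeR without the block 0 and 2. With the block, the p-values measure the difference between the classes within libraries against how it varied from library to library. All libraries came from the same blood and differed in LPS treatment.

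The genes that were higher in the LEF1-positive cells included receptors that guide naive T cells into and out of lymph nodes. CCR7 was at 337, 522, 525 and 444 CPM against 274, 388, 329 and 323 CPM, so the LEF1-positive value was the higher one in each library. The log2 difference was 0.47 ± 0.049 (SE, 4 libraries, adjusted p = 1.20e-07 by edgeR). TCF7, the partner factor of LEF1, was at 231, 170, 199 and 198 CPM against 190, 152, 153 and 176 CPM, a smaller log2 difference of 0.25 ± 0.060 (adjusted p = 0.0136). It was no longer called when the no LPS library (adjusted p = 0.107) or the 4 h library (adjusted p = 0.212) was left out, or by DESeq2 (adjusted p = 0.384). S1PR1, which lets T cells leave lymph nodes, was also higher by 0.36 (adjusted p = 0.0279).

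The gene with the lowest adjusted p among those higher was DAPL1. It was at 99.0, 104, 130 and 189 CPM in LEF1-positive cells and at 59.4, 53.9, 58.9 and 85.1 CPM in LEF1-negative cells. The log2 difference was 0.99 ± 0.083 (adjusted p = 9.65e-10 by edgeR), and it was higher in 4 of 4 libraries. LGMN, a lysosomal protease, differed by 0.31, PDK1, a kinase that limits the entry of pyruvate into mitochondria, by 0.68, and ATP5F1E, a subunit of ATP synthase, by 0.21. The cell division genes CENPF (1.27) and TOP2A (1.64) and the tubulin regulator STMN1 (0.65) were called too, but were higher in 3 of 4 libraries only, and DESeq2 did not call STMN1 (adjusted p = 0.855). These division genes came from very few cells. TOP2A was seen in 4, 6, 5 and 0 members, and MKI67 in 3, 21, 14 and 1 members.

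The naive and quiescence list had 23 members tested, of which 4 were higher (CCR7, TCF7 and S1PR1 among them), 1 was lower and 18 were not called, with a median log2 difference of 0.09 against 0.01 over all genes. The lower one was IL7R, at 865, 908, 1029 and 981 CPM against 1084, 1144, 1273 and 965 CPM. LEF1-positive cells had less of it in all libraries but that of 8 h, and the log2 difference was -0.25 ± 0.042 (adjusted p = 0.000248), which DESeq2 did not call (adjusted p = 0.316). CD27, KLF2, BACH2, FOXP1 and SATB1, also linked to resting or naive T cells, were not called. The median number of UMIs of the whole list per member, in 2000, was 8 in every library, and in LEF1-negative cells it was 8, 8, 8 and 7. Within this list, and beyond LEF1, the label naive-like thus rests on the 4 called genes, and the call of TCF7 did not hold in DESeq2 (adjusted p = 0.384). Of the 23 genes, 8 were higher and 0 lower in 4 of 4 libraries, where 9.34% and 9.83% of all tested genes were.

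Memory and effector genes moved the other way. Of 25 tested, 11 were lower, 2 were higher (LGALS3 and ID2) and 12 were not called, with a median of -0.33. S100A4, a calcium binding protein of memory T cells, was at 435, 364, 221 and 265 CPM against 601, 584, 484 and 506 CPM, and the 2 sets of values did not overlap. Its log2 difference was -0.78 ± 0.062 (adjusted p = 4.07e-10 by edgeR). S100A11 was at 556, 476, 376 and 423 CPM against 764, 671, 675 and 665 CPM, a log2 difference of -0.61 ± 0.047 (adjusted p = 3.61e-10). AHNAK, a large scaffold protein, differed by -0.77, the interleukin 2 receptor subunit IL2RB by -0.77, the integrin ITGB1 by -0.34, the migration receptor GPR183 by -0.41 and the lineage factors GATA3 and RUNX3 by -0.33 and -0.44. ANXA2, LGALS1 and CRIP1 were the other 3 that were lower.

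T cell activation genes were also lower in the LEF1-positive cells, with 8 of 17 tested called lower, 0 called higher and a median of -0.31. TNFRSF18 (GITR), a costimulatory receptor of activated and regulatory T cells, was at 22.5, 127, 98.0 and 64.6 CPM against 68.0, 253, 194 and 117 CPM, so the LEF1-positive value was the lower one in each library. The log2 difference was -1.04 ± 0.081 (adjusted p = 3.61e-10 by edgeR). TNFRSF4 (OX40), another costimulatory receptor, differed by -0.66, the interleukin 2 receptor chain IL2RA by -0.44, the factor BATF by -0.31 and the inhibitory receptor PDCD1 by -0.57. CD69, the early activation marker, did not pass the test (0.21 ± 0.11, adjusted p = 0.468). Among NF-kB genes 4 of 17 were lower (NFKB1, NFKBIA, TNFAIP3 and TNIP2), and among 38 interferon-stimulated genes only ISG20 was lower (-0.40). The remaining genes among the 10 with the lowest adjusted p on the lower side were the granule proteoglycan SRGN (-0.38), the G protein regulator RGS1 (-0.68), the survival gene BCL2A1 (-0.61), the chemokine CCL4 (-1.59, adjusted p = 0.167 by DESeq2, and -0.81 without the 2 h library and -2.19 without that of no LPS), METRNL (-0.65) and ARL6IP1 (-0.33).

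**Figure D2:**
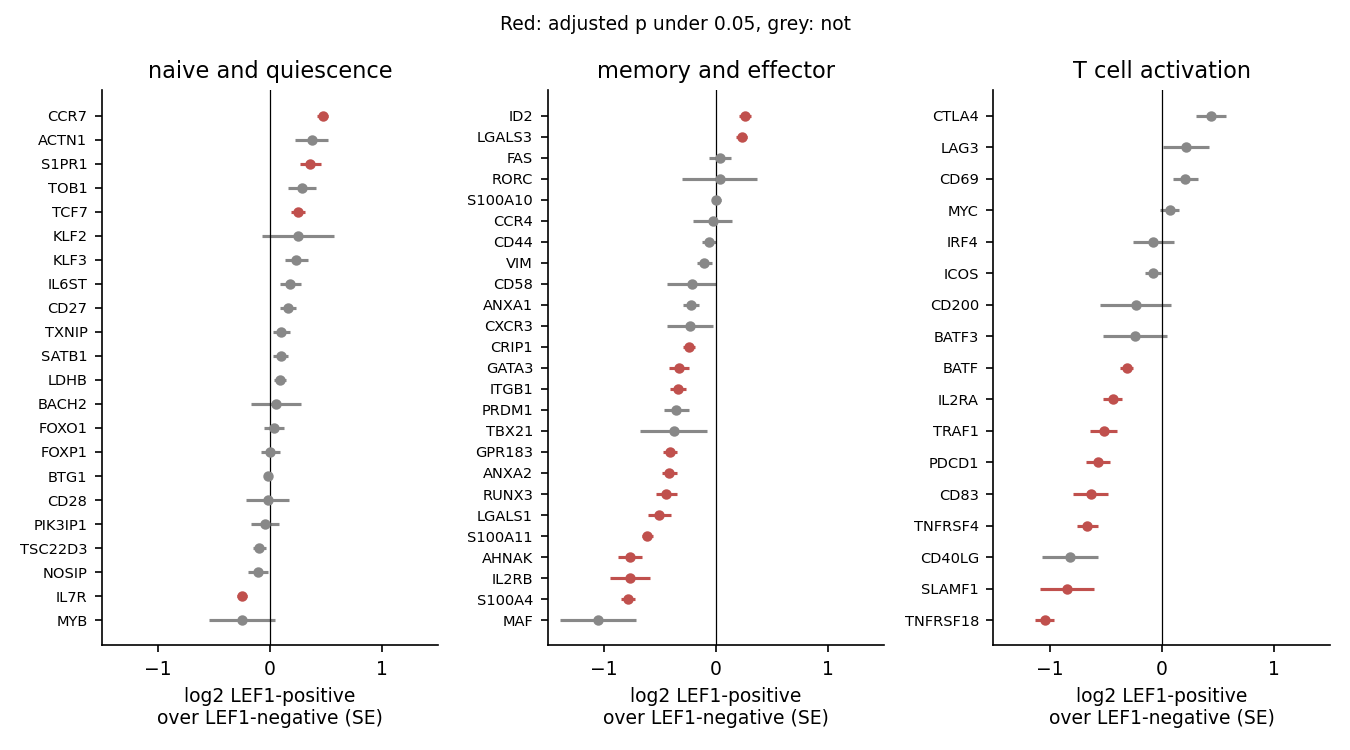
Log2 difference between LEF1-positive and LEF1-negative CD4 T cells for tested genes of 3 lists, with bars of 1 SE and red for an adjusted p under 0.05. CCR7 in the naive list is at 0.47, while S100A4 (-0.78) and TNFRSF18 (-1.04) lie at the low end of the other lists.

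The members with more LEF1 molecules lay further in the same directions, which is given as a description because it uses the gene of the rule. Without LPS, S100A4 was at 601 CPM in CD4 T cells with 0 LEF1 UMIs, at 465 CPM with 1 and at 357 CPM with 2 or more. At 8 h the same values were 506, 380 and 83.6 CPM. CCR7 went the other way, at 329, 489 and 599 CPM at 4 h, and TNFRSF18 without LPS was at 68.0, 27.5 and 9.91 CPM. For CCR7, TCF7, S100A4, S100A11 and TNFRSF18 the order of the 3 classes was the same in each of the 4 libraries, whereas DAPL1 at 4 h (58.9, 134 and 122 CPM) and IL7R at 8 h (965, 1050 and 870 CPM) did not follow it. These 7 genes were chosen after their values were seen. The median UMI count of cells with 2 or more LEF1 UMIs was 4843, 4966, 5494 and 6390.

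The change with LPS time was then read within the members. Each ratio is log2((CPM + 1)/(CPM + 1)) of the summed members against no LPS, the interval is an exact 95% interval of the CPM ratio for counting error only, and all 3 ratios share the same control library. Among genes with at least 50 UMIs over both libraries, 48 of 5614 (0.855%) were at least 2-fold higher at 2 h and 22 (0.392%) at least 2-fold lower. At 4 h 113 of 5670 (1.99%) were higher and 37 (0.653%) lower, and at 8 h 27 of 5169 (0.522%) were higher and 28 (0.542%) lower. The 4 h library therefore had the most genes past 2-fold. The median over all genes was 0.00, 0.01 and -0.01, so the scale itself did not move.

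At 2 h the 6 highest ratios belonged to TNFRSF4, TNFRSF18, ISG15, MKI67, TRAF1 and NFKBIA. TNFRSF4 was at 28.7, 181, 167 and 53.6 CPM, with log2 ratios of 2.61 (2.23 to 3.11), 2.50 and 0.88 (0.37 to 1.44). TNFRSF18, whose levels are given above, had ratios of 2.45 (2.02 to 3.02), 2.08 (1.63 to 2.65) and 1.48 (0.97 to 2.09), and was the gene with the largest ratio at 8 h. Both receptors were therefore high at 2 h and 4 h and had come part of the way back at 8 h. After thinning to 2000 UMIs, TNFRSF18 was seen in 3.3%, 11.4%, 8.4% and 8.2% of the members, and unthinned in 6.9%, 18.5%, 19.5% and 14.0%, against at most 2.11% of the B cell gate and 4.41%, 4.67%, 5.65% and 9.26% of the monocyte gate after thinning. The shares of the members without LPS and at 8 h were thus no higher than those of the monocyte gate. They were above those of the B cell gate, at 0.696% without LPS and 0.823% at 8 h.

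NFKBIA, the inhibitor that NF-kB itself switches on, was at 228, 728, 667 and 372 CPM, with ratios of 1.67 (1.52 to 1.84), 1.54 (1.39 to 1.71) and 0.70 (0.52 to 0.89). TNFAIP3, a further brake on NF-kB, was at 29.2, 73.0, 59.5 and 49.5 CPM, and the subunit NFKB2 at 76.5, 146, 184 and 133 CPM. Over the NF-kB list the median ratio was 0.65, 0.71 and 0.30, and 3 of 15, 5 of 16 and 0 of 15 genes were at least 2-fold higher. The level of every gene in this list with enough UMIs in the 4 libraries (17 of 17) was highest at 2 h or 4 h, where 23.6% and 24.3% of all genes were highest. TRAF1, an adaptor of these receptors, was at 12.9, 43.8, 35.3 and 15.1 CPM, and the survival gene BCL2A1 was at 103, 284, 202 and 103 CPM. The NF-kB list also rose in other cells, with medians of 1.14, 0.64 and 0.19 in the B cell gate and 0.68, 0.53 and 0.23 in CD8 T cells. After thinning, NFKBIA was seen at 2 h in 58.6% of the members, 70.9% of the B cell gate and 99.4% of the monocyte gate. The part of RNA from outside the cell in the NF-kB values was not tested.

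The T cell activation list had a median ratio of 0.79, 1.16 and 0.21, with 6 of 12, 10 of 14 and 1 of 9 genes at least 2-fold higher and 0 at least 2-fold lower at each time. BATF, an AP-1 factor of activated T cells, was at 81.0, 251, 269 and 88.7 CPM. IRF4, a factor that scales with T cell receptor strength, had 3, 43, 73 and 13 UMIs, with a ratio of 3.68 (2.70 to 6.62) at 4 h. CD83 was at 4.50, 23.5, 27.9 and 12.4 CPM, and IL2RA at 53.4, 87.1, 127 and 68.0 CPM. CD69 was at 23.1, 59.3, 54.0 and 37.1 CPM, with ratios of 1.33 (0.84 to 1.91), 1.19 (0.71 to 1.78) and 0.66 (0.07 to 1.31). The inhibitory receptor CTLA4 was at 36.6, 45.7, 81.5 and 33.7 CPM and thus high at 4 h only. MYC was at 116, 106, 110 and 96.2 CPM and did not follow the list. After thinning, BATF was seen at 2 h in 20.6% of the members, 47.5% of the B cell gate and 46.4% of the monocyte gate. CD69 and IRF4 were also seen in a smaller share of the members than of either gate at 2 h. TNFRSF4, TNFRSF18 and IL2RA were seen in a larger share of the members. Without the 5 members with most UMIs of each gene in each library, the list medians were 1.41, 1.11 and -0.09. The medians over all genes in that setting were 0.04, 0.05 and -0.09. At 8 h the list thus no longer stood clearly above all genes. With all cells kept, the list also rose in CD8 T cells, with medians of 0.48, 0.41 and 0.35. In the B cell gate its median at 2 h was above that of the members. At 4 h it was below, at 0.75 against 1.16. The part of RNA from outside the cell in the activation values was not tested.

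**Figure D3:**
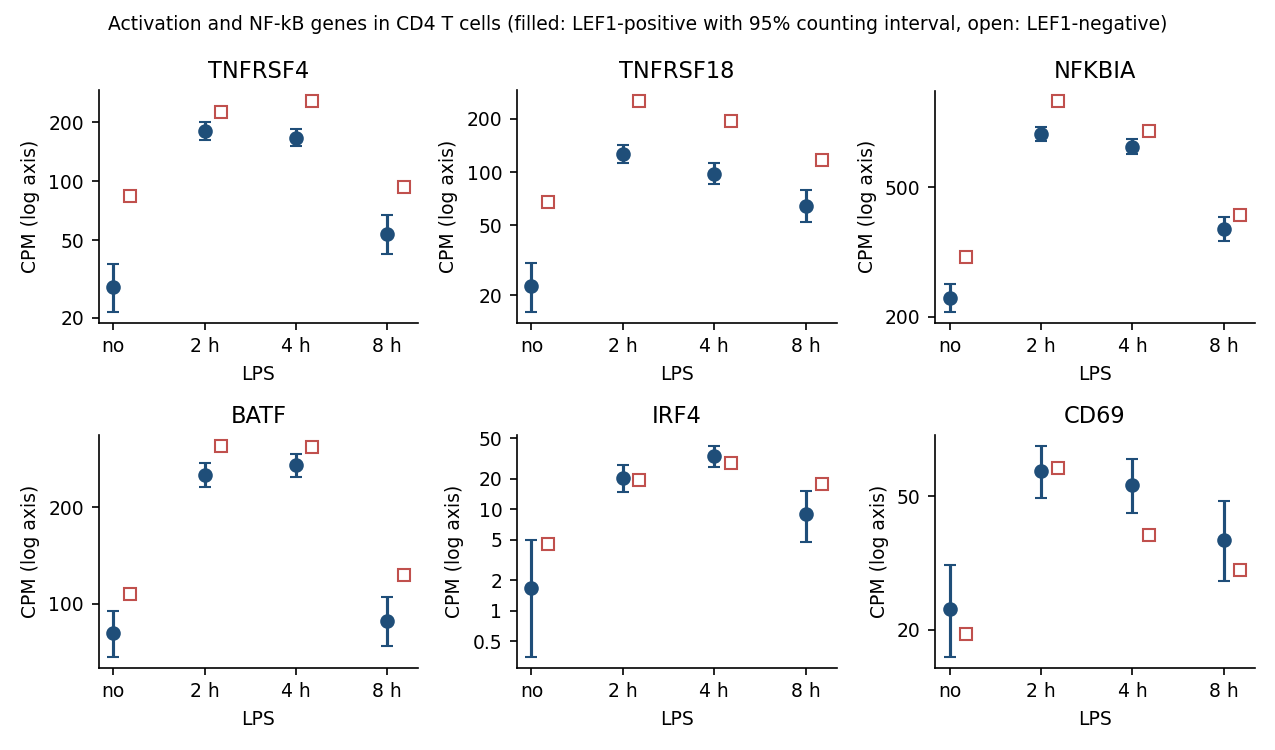
CPM on a log axis of 6 activation and NF-kB genes by LPS treatment, with filled circles for LEF1-positive CD4 T cells (95% counting interval) and open squares for LEF1-negative cells. TNFRSF4 in the members goes from 28.7 to 181 CPM at 2 h and is at 53.6 CPM at 8 h, and TNFRSF18 lies below the LEF1-negative value in each library.

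The LEF1-negative cells are given beside these values, though whether the classes differed in their ratio was not tested. TNFRSF4 had a log2 ratio of 1.42 in them at 2 h and TNFRSF18 one of 1.88, against 2.61 and 2.45 in the members. NFKBIA had 1.59 against 1.67. In LEF1-negative cells 65 of 6771 genes (0.96%) were at least 2-fold higher and 23 (0.34%) lower at 2 h, 118 of 6661 (1.77%) and 42 (0.631%) at 4 h, and 35 of 5817 (0.602%) and 32 (0.55%) at 8 h.

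Interferon-stimulated genes were 28 of the 113 genes that were at least 2-fold higher at 4 h. These were 28 of the 38 genes of the list with enough UMIs, against 3 of 30 at 2 h and 1 of 26 at 8 h, and the median ratio was 0.50, 1.53 and 0.27. In 35 of 38 genes the level was highest at 4 h, while 24.3% of all 7064 genes were highest there. The interval at 4 h lay above 0 in 36 of 38 genes of the list, but the share over all genes was not counted. ISG15, a ubiquitin-like protein, was at 122, 548, 1557 and 120 CPM. Its ratio was 2.16 (1.96 to 2.38) at 2 h, 3.66 (3.47 to 3.88) at 4 h and -0.03 at 8 h. Of its UMIs without LPS 51.6% were in 5 members, and it was seen in 15.2% of the members without LPS and in 26.6% at 8 h. IFIT3, which hinders viral RNA translation, had 3, 32, 164 and 9 UMIs and the highest ratio at 4 h, 4.82 (3.90 to 7.77).

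The other genes among the highest at 4 h were antiviral effectors as well. OAS1Y, which makes the signal that activates RNase L, was at 8.43, 14.6, 111 and 15.8 CPM (ratio 3.57 at 4 h). The GTPases MX1 and MX2 were at 26.4, 54.6, 270 and 47.4 CPM (3.30) and at 9.56, 12.2, 109 and 17.2 CPM (3.39). RSAD2 (viperin) was at 11.8, 21.2, 106 and 20.6 CPM (3.07). Each of them had its highest level at 4 h and its lowest without LPS. IRF7, the factor that amplifies interferon production, was at 73.1, 99.3, 247 and 90.7 CPM, USP18, a brake on the interferon receptor, was at 33.2, 67.3, 147 and 44.0 CPM, and EPSTI1 was at 159, 202, 412 and 211 CPM.

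**Figure D4:**
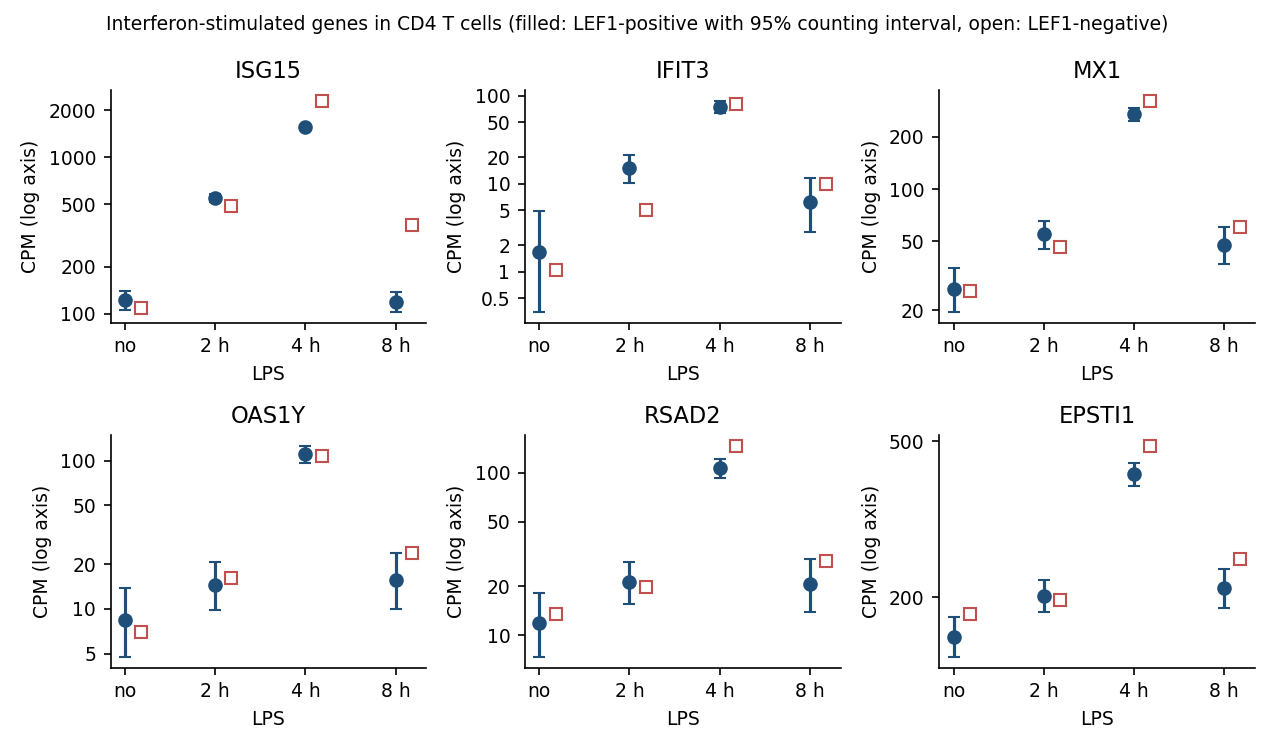
CPM on a log axis of 6 interferon-stimulated genes by LPS treatment, with filled circles for LEF1-positive CD4 T cells (95% counting interval) and open squares for LEF1-negative cells. The 6 genes are highest at 4 h in both classes, and ISG15 at 8 h is at 120 CPM in the members against 371 CPM in LEF1-negative cells.

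The interferon genes were not spread evenly over the members. In 2000 UMIs of a cell, the median number of UMIs of this list was 3, 4, 6 and 4, while the 75th percentile was 5, 6, 13 and 6 and the highest member held 34, 57, 97 and 23. Members with 10 or more were 4.83% (16 of 331, exact interval 2.79 to 7.73), 12.9% (51 of 394, 9.79 to 16.7), 33.2% (123 of 370, 28.5 to 38.3) and 8.64% (19 of 220, 5.28 to 13.2). In LEF1-negative cells the shares were 5.52%, 13.2%, 41.4% and 17.8%. Even at 4 h, then, most of the members stayed under 10, and 2.97% of them held none. At 2 h a single member held 236 of the 1164 ISG15 UMIs, and the 5 members with most of it held 44.7%. Without the 5 members with most in each library the ISG15 ratio was 2.34 at 2 h and 4.43 at 4 h.

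**Figure D5:**
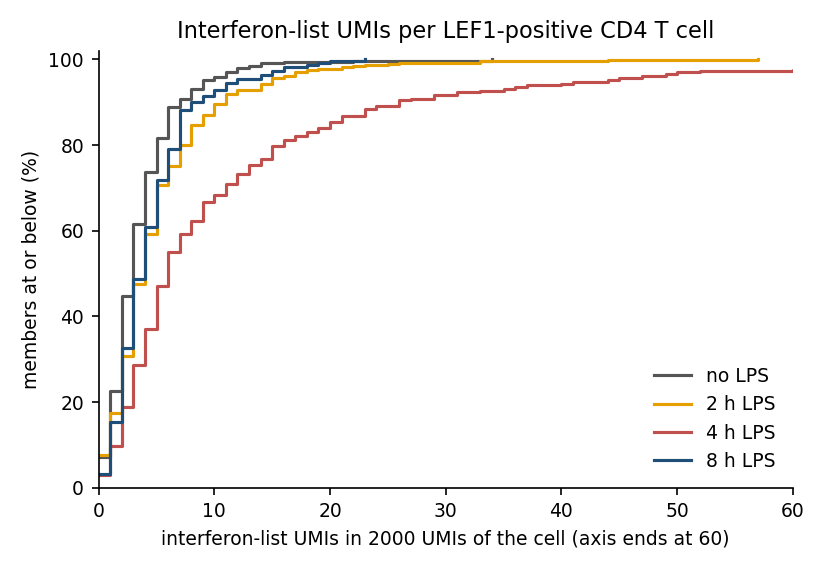
Cumulative percentage of LEF1-positive CD4 T cells (y axis) by the number of interferon-list UMIs in 2000 UMIs of the cell (x axis, ending at 60), with 1 line per library. The 4 h line lies to the right of the others, with 33.2% of its members at 10 or more.

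ISG15 was also high in the other cells of the same libraries. It was at 159, 2463, 5359 and 481 CPM in the B cell gate, 187, 751, 1759 and 121 CPM in the monocyte gate, 19.8, 144, 464 and 63.3 CPM in CD8 T cells and 110, 492, 2288 and 371 CPM in LEF1-negative CD4 T cells, and each class was highest at 4 h. RNA from outside the cell can add such UMIs to the members, and its part was not tested. A UMI of ISG15 was seen in 15.2%, 31.4%, 60.5% and 26.6% of the members (8.46%, 20.8%, 47.3% and 13.6% after thinning).

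The genes that mark the naive state moved little. Over the naive and quiescence list the median ratio was 0.07, -0.18 and -0.22, with 0 of 20, 0 of 19 and 0 of 20 genes at least 2-fold higher, and 1 gene, TOB1, at least 2-fold lower, at 4 h only. CCR7 was higher than without LPS at each time, with ratios of 0.63 (0.49 to 0.78), 0.64 (0.49 to 0.78) and 0.39 (0.23 to 0.56). TCF7 had ratios of -0.45, -0.21 and -0.22, and IL7R 0.07, 0.25 and 0.18. CD27, a costimulatory receptor of resting T cells, was at 167, 111, 94.3 and 130 CPM, and the quiescence factors TOB1 and KLF3 were at 51.7, 38.1, 24.7 and 37.8 CPM and at 65.8, 61.2, 39.4 and 34.4 CPM.

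The memory and effector list had medians of 0.02, -0.18 and -0.30, with 1 gene at least 2-fold higher at 4 h (the death receptor FAS, at 52.3, 83.3, 119 and 75.6 CPM), 1 higher at 8 h (RUNX3, at 39.4, 54.6, 56.8 and 80.4 CPM) and 1 lower at 8 h (the filament protein VIM, at 280, 227, 198 and 140 CPM). S100A4 had ratios of -0.26, -0.97 and -0.71. After thinning it was seen in 19.6%, 17.0%, 13.5% and 15.9% of the members. In the B cell gate the shares were 10.9%, 6.77%, 5.07% and 8.23%, and in the monocyte gate 94.8% without LPS. The part of RNA from outside the cell in the S100A4 values was not tested. The ratio of RUNX3 at 8 h was 1.01, and it was 0.01 among members with at least 2 LEF1 UMIs. Genes of the interleukin receptor and STAT list had medians of 0.11, 0.18 and 0.09. In that list the kinase PIM1 was at 61.3, 151, 176 and 99.0 CPM and the feedback inhibitor CISH at 25.3, 30.1, 60.4 and 27.5 CPM.

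In each of the pathway lists that follow at most 2 genes passed 2-fold in either direction at any time. The immediate early list had medians of 0.05, 0.02 and 0.17. In it JUNB was at 249, 420, 343 and 261 CPM, while JUN was at 231, 212, 219 and 205 CPM and FOS had 9 to 16 UMIs per library. T cell receptor signalling genes had medians of -0.04, -0.12 and 0.07, glycolysis and hypoxia genes 0.06, -0.06 and 0.00, heat shock genes 0.13, 0.15 and 0.09, stress and amino acid genes 0.06, 0.23 and -0.17, and LPS and interferon sensing genes 0.02, -0.24 and 0.00. Homing and adhesion genes had -0.06, -0.28 and -0.38, and survival genes 0.30, 0.29 and 0.07. The interval lay below 0 at 8 h in 8 of 14 homing and adhesion genes, but the share over all genes was not counted. The cell cycle list had 0.12, 0.33 and -0.38. TLR4, the receptor of LPS, had 2, 0, 3 and 1 UMIs in all members together, while the monocyte gate had it at 84.2, 89.5, 137 and 93.2 CPM.

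Few cytokine molecules were found in the members. IL2 had 8, 5, 7 and 1 UMIs, IFNG 1, 13, 7 and 2, IL4 1, 2, 1 and 1 and IL17A 1, 0, 1 and 8, and IL21 and IL22 had 0 in each library. TNF was at 15.8, 29.2, 30.2 and 22.7 CPM, with a ratio of 0.85 (0.22 to 1.59) at 2 h. CCL20, a chemokine of T helper 17 cells, was at 7.31, 34.8, 14.7 and 3.44 CPM. The depth did not allow a comparison of the interleukins.

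CCL2 had the lowest ratio at 2 h and at 4 h. This chemokine, made by monocytes, was at 227, 35.3, 10.1 and 98.3 CPM, with ratios of -2.65 (-3.06 to -2.32), -4.36 (-5.18 to -3.87) and -1.20 (-1.49 to -0.93). It was seen in 60.6% of the members without LPS and in 16.7%, 5.9% and 38.7% at the later times. In the monocyte gate it was at 32722, 9802, 5767 and 10298 CPM, and in the B cell gate at 1691, 514, 143 and 294 CPM, so the order of the libraries was the same as in the members in the monocyte gate, while in the B cell gate the 2 h value lay above that of 8 h. The monocyte gate itself held 806, 369, 160 and 84 cells. The 13 monocyte markers summed to 294, 62.6, 34.3 and 185 CPM in the members, and to 66.9, 27.3, 24.3 and 86.6 CPM without CCL2, with SERPINA1 and CD163 at 0 in each library. The part of monocyte RNA in the CCL2 values was not tested.

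CCL4, CCL3 and CCL5 rested on few cells. Of the 257 CCL4 UMIs without LPS, 198 were in 1 member, and of the 162 CCL3 UMIs 106 were. CCL4 was at 145, 68.3, 16.5 and 25.4 CPM and CCL3 at 91.1, 45.2, 81.1 and 87.3 CPM. Their ratios at 2 h were -1.07 and -0.995, and without the 5 members with most of each gene they were 0.93 and 0.67, so the direction turned. Without those members the CCL4 ratio was -0.97 at 4 h and -0.57 at 8 h, against -3.06 and -2.46 with them. CCL5 was at 134, 130, 42.6 and 83.2 CPM, with 82.6% to 92.1% of its UMIs in 5 members of each library, and its 4 h ratio of -1.64 was -0.57 without them. The 12 NK and cytotoxic markers, of which CCL5 is one, summed to 236, 194, 87.9 and 218 CPM, and to between 45.3 and 135 CPM without it, with GZMA at 0 in each library. MKI67 at 2 h (1.96) was -0.08 when cells above 3000 genes were allowed, and 80% of its UMIs at 2 h were in 5 members.

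CD74, which belongs to antigen presentation, had a ratio of -1.12 at 2 h, and the Fc receptor chain FCER1G one of -1.03. C7H19orf67 had -1.04. The 11 B cell markers summed to 36.6, 16.5, 21.1 and 35.7 CPM in the members, against 1675 to 2236 CPM in the B cell gate, with EBF1 at 0 in each library, and their part was not tested. Lower at 4 h were SMPDL3A (42.7, 29.2, 16.9 and 17.2 CPM), the cyclin kinase inhibitor CDKN2D (64.1, 43.3, 27.5 and 26.1 CPM) and KCTD11 (98.4, 61.7, 42.6 and 55.0 CPM). The first 2 were also among the 6 lowest at 8 h, and all of their values with LPS were below the value without it.

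At 8 h fewer genes stood apart. Besides TNFRSF18 and RUNX3, the highest ratios belonged to ZC3H10 (71.4 CPM without LPS and 193 CPM at 8 h, ratio 1.42), MRPL16, a protein of the mitochondrial ribosome (1.17), TRAF3IP1 and CXCL8, a neutrophil chemokine (1.02). CXCL8 was at 44.4, 132, 245 and 91.4 CPM, and of its 535 UMIs at 4 h 311 were in 1 member. In the monocyte gate it was at 9092, 24390, 24665 and 15446 CPM, and in the B cell gate at 905, 1878, 1116 and 769 CPM. The part of RNA from other cells in the CXCL8 values was not tested. The lowest, beside those named above, were STMN1 at 129, 131, 118 and 48.1 CPM (-1.40) and RDH14 at 50.6, 44.7, 43.5 and 23.4 CPM (-1.08). STMN1 had a ratio of -0.33 when cells above 3000 genes were allowed. The 7 regulatory T cell markers summed to 142, 281, 342 and 185 CPM in the members, and to 29.2, 21.2, 35.7 and 18.6 CPM without TNFRSF18, IL2RA and CTLA4, which activated T cells also express.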

How the data were processed

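The deposited tables hold raw UMI counts per gene and barcode, which the authors made with Cell Ranger 3.1.0 on ARS-UCD1.2 (bosTau9), and 4 of them, from single-cell RNA sequencing, were used. The chromatin tables were not used here. Rows with the same gene name were summed (21861 rows, 21778 names). Cells with 200 to 3000 genes were kept, and no doublet caller was run. The members' counts were summed per library and scaled to a total of 1e+06 (CPM). Ratios used a pseudocount of 1 CPM, with exact 95% binomial intervals. A change of 2-fold was counted among genes with at least 50 UMIs over 2 libraries, and lists used genes with at least 20. LEF1-positive and LEF1-negative cells were compared with edgeR 4.0.16 in R 4.3.3, with the library as a block and Benjamini-Hochberg adjustment at 0.05. In data simulated for that comparison, 98% of 100 genes changed 2-fold and 73% of 100 changed 1.5-fold were recovered, among 7592 genes, with 4 false calls. The simulation gave every gene the same fixed spread and changed only genes with many UMIs, so this recovery need not hold for the real data. The B cell and monocyte gates needed at least 2 UMIs of their markers.

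Members and lists were chosen with earlier results of these data known. Named were, per time, the 6 highest and 6 lowest ratios with at least 100 UMIs, the 10 lowest adjusted p each way, and up to 4 genes per list with the largest ratio, and any other gene was chosen after its values were seen. Alternatives were DESeq2 1.42.0, other filters, pseudocounts, depths and each library left out. Some genes that this rule names are not reported here.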

Additional observations from a re-analysis of the deposited data

How the results depend on the processing

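The share of LEF1-positive cells depended on depth and on the rule. With at least 2 LEF1 UMIs it was 1.16%, 1.12%, 1.60% and 2.36% of cells and 9.57%, 9.37%, 12.3% and 18.9% of CD4 T cells without LPS and at 2 h, 4 h and 8 h. With at least 2 CD4 UMIs it was 2.16%, 1.64%, 2.41% and 3.4% of cells, and 31.1% of CD4 T cells at 2 h. After thinning before the rule it was 1.19%, 0.839%, 0.905% and 1.40% of cells and 19.9%, 18.6%, 21.2% and 25.4% of CD4 T cells. The counts of genes past 2-fold (higher and lower) at 2 h, 4 h and 8 h were 116 and 87, 185 and 110, and 93 and 96 with at least 20 UMIs, and 14 and 2, 42 and 6, and 4 and 7 with at least 200. With a pseudocount of 5 CPM they were 29 and 10 at 2 h and 16 and 15 at 8 h, with 20 lower at 4 h. With no upper limit on genes 35 were lower at 2 h and 51 higher at 8 h, and with at least 2 LEF1 UMIs 23 were lower at 4 h. Without the 5 members with most UMIs of each gene, chosen after seeing the data, 67 were lower at 8 h. In that setting the median over all genes at 8 h was itself -0.09. Between the classes DESeq2 called 12 genes higher and 31 lower. Without the library as a block edgeR called 0 and 2, with 423 genes at an unadjusted p under 0.05, and with 1 library left out at a time it called 24 to 51 and 80 to 137. Reversed were MKI67 at 2 h with no upper limit on genes (-0.081), and CCL4 (0.93) and CCL3 (0.67) at 2 h without the 5 members with most. The cause of these changes was not tested. The activation list median at 8 h went from 0.21 to -0.09 without the 5 members with most, near the median over all genes in that setting. The medians of the interferon, immediate early, NF-kB and naive lists stayed, under each alternative run, within the counting interval of the gene nearest to the median. The interval of 1 gene is a wide measure, since the activation list median stayed within it too, despite its change at 8 h. Members with few UMIs, and 222 members at 8 h, limit the precision for genes of low level.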
